A study of Mus musculus with 30 samples.

Results

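The Toll-like receptor (Tlr) genes were followed across the cell types of mouse spleen. The set held 10 genes of the 32285 in the count tables, chosen by symbol and not by any measured value: Tlr1, Tlr2, Tlr3, Tlr4, Tlr6, Tlr7, Tlr8, Tlr9, Tlr11 and Tlr13. The measurements came from droplet single-cell RNA sequencing of spleen cells from which red blood cells had been depleted, in 2 libraries from Smc3-WT mice and 2 libraries from Smc3-cKO mice. The protein made from Smc3 is part of cohesin, a ring that holds chromatin loops, and cKO, usually read as conditional knockout, is not spelled out in the labels. The Cre line that removes Smc3, the cells in which it acts and the part of the gene it removes are not given in the sources used here. An age of 6 to 8 weeks is given for the mice from which dendritic cells were sorted. No treatment is named for either group. Whether replicate libraries came from separate mice is not stated, so p-values measure only the spread between libraries. The other 26 of the 30 samples of the series, which asks how cohesin and the transcription factor PU.1 shape conventional dendritic cells (cDC), were not analysed here.

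Toll-like receptors recognise molecules of microbes through a horseshoe of leucine-rich repeats and signal through a cytoplasmic TIR domain, mostly by way of the adaptor Myd88. Tlr1, Tlr2, Tlr4 and Tlr6 act mainly at the cell surface on lipoproteins and lipopolysaccharide, whereas Tlr3, Tlr7, Tlr8, Tlr9 and Tlr13 sense nucleic acids in endosomes, where Tlr11, a receptor for the profilin of protozoa, also signals. The spleen's dendritic cells are known to divide these receptors among themselves: cDC1, the cross-presenting subset, are known for Tlr3 and Tlr11, and plasmacytoid dendritic cells (pDC), the interferon producers, for Tlr7 and Tlr9.

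The libraries held 51299056 and 48970568 unique molecular identifier (UMI) counts in Smc3-WT replicates 1 and 2 and 40367056 and 46678046 in Smc3-cKO replicates 1 and 2, and 44803 cells were kept. Cells were grouped by clustering without the Tlr genes and named from marker genes. The 2 libraries numbered 1 differed from the 2 numbered 2 in composition: erythroid-like cells made up 6.93% and 5.84% of cells in Smc3-WT and Smc3-cKO replicate 1 against 0.875% and 0.126% in replicate 2. Doublets remained, as the caller marked 1.03% to 6.41% of cells against expected rates of 7.26% to 12.9%. Any pair of libraries shared 36 to 61 cell barcodes. Smc3 itself stood at 83.3 and 102 CPM (a gene's count over the summed count, set to a fixed total; unscaled here) in all cDC-like cells of the Smc3-WT libraries and at 112 and 122 in those of the libraries labelled Smc3-cKO. Its counts were thus no lower there, and 3′ counts check the label only if they come from the deleted part, which is not given.

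The cDC1-like class numbered 49 and 60 cells (Smc3-WT, in replicate order) and 31 and 25 cells (Smc3-cKO). The cDC2-like class held 119, 189, 97 and 206 cells, and the pDC-like class held 49, 82, 95 and 47. The cDC1-like cluster carried 11 of 12 listed markers, with Clec9a, Xcr1 and Cadm1 among its leading genes, and the pDC-like cluster carried 12 of 12. The cDC2-like class joined a cluster led by Adam23 and another led by Cd209a, which carried 8 of 12 markers each. The Adam23 cluster held 100 and 140 Smc3-WT cells against 21 and 70 labelled Smc3-cKO, and the Cd209a cluster held 19 and 49 against 76 and 136, so the class was made of different clusters in the 2 genotypes. Compared here are 9 classes: cDC1-like, cDC2-like, pDC-like, classical and nonclassical monocyte-like, macrophage-like, neutrophil-like, follicular B-like and marginal zone B-like cells. Mature cDC-like cells and a shallow cluster of 198 cells are not among the 9 and were counted where cDC-like cells are summed. The shallow cluster was named mixed cDC because markers of 2 dendritic classes, among them Xcr1 and Clec9a, were among its leading genes. Levels are TMM-scaled CPM of the counts summed over all cells of a class in a library. A gene's order over classes is a description with no test, since the classes were built from the same cells.

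Tlr3 and Tlr11 marked cDC1-like cells. Tlr3, the receptor for double-stranded RNA, stood at 193 and 194 CPM in cDC1-like cells of the Smc3-WT libraries and at 181 and 55.6 CPM in those of the libraries labelled Smc3-cKO. Every cDC1-like library lay above every library of the other 8 classes, although Smc3-cKO replicate 2, with 11 Tlr3 UMIs, stood well below the other 3. Macrophage-like cells came next with 17.1 to 44.4 CPM, then marginal zone B-like cells with 8.54 to 16.4 CPM, and these ranges did not overlap with each other or with the classes below. In cDC2-like cells Tlr3 stood at 5.24 and 3.51 CPM (Smc3-WT) and at 5.1 and 4.33 CPM (Smc3-cKO). Neutrophil-like cells held no Tlr3 UMI.

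Tlr11 stood at 226 and 134 CPM in cDC1-like cells of Smc3-WT and at 187 and 131 CPM in those labelled Smc3-cKO. All 4 values lay above all libraries of the other 8 classes. Outside the 9 classes, the shallow mixed cDC cluster reached 244 CPM of Tlr3 and 146 CPM of Tlr11 in Smc3-WT replicate 2, on 24 and 12 UMIs in its 4 libraries together. The next class, cDC2-like cells, held 27.9 and 9.37 CPM (Smc3-WT) and 27.2 and 5.19 CPM (Smc3-cKO). Tlr11 had 0 UMIs in pDC-like, neutrophil-like and marginal zone B-like cells of all 4 libraries, which in pDC-like cells allows a level of up to 2.07 CPM over the 4 libraries (3 counts of the total, counting error only). In macrophage-like cells the 44.4 CPM of Smc3-cKO replicate 2 rested on 2 UMIs, and the other 3 libraries stood at 0 to 3.41 CPM. When cells were instead assigned one by one from their own marker UMIs, cDC1-like cells read 276, 252, 192 and 50.3 CPM of Tlr3 and 328, 171, 192 and 101 CPM of Tlr11, in the order Smc3-WT 1 and 2 and Smc3-cKO 1 and 2.

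In GRCm38.p6 Tlr3 lies at chr8:45395665-45411075 and Tlr11 at chr14:50357914-50363663. The bases before the start of Tlr3 and Tlr11 are shown because both genes were most abundant in the same class. The sequences are RefSeq's for GRCm38.p6, and entries matched 8 of the 10 members, in 10 windows, Tlr1 and Tlr6 having 2 starts each. Each window is the 250 bases before an annotated start, 5′ to 3′ on the gene's strand, with matches to GAGGAA and to TTTC repeated after a gap of 2 bases, on either strand, in capitals. The Tlr11 window lies at chr14:50357664-50357913 on the plus strand, and the Tlr3 window at chr8:45410381-45410630 on the minus strand.
Tlr11: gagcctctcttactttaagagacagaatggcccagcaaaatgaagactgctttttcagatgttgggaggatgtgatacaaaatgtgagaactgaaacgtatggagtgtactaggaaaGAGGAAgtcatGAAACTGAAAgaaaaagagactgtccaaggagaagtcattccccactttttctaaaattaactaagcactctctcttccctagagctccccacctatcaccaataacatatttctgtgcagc
Tlr3: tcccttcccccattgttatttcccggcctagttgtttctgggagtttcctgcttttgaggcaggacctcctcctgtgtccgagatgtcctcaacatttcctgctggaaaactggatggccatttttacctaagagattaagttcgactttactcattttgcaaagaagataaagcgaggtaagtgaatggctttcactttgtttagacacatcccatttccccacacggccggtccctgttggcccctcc
Tlr11 held GAGGAA, the core of sites bound by PU.1 and other ETS factors, at position -133 from the start, and there the longer form GAGGAAGT, of which GAGGAA is the first part. It also held the spaced TTTC pair, the form of an interferon-stimulated response element, on the opposite strand at position -122. The Tlr3 window held no match to these letters. GAGGAA was present in 23.3% of all 32851 promoter windows of 250 bases, GAGGAAGT in 2.44% and the TTTC pair in 2.98%. Among the 8 members with an entry, GAGGAA was found in 5 (Tlr1, Tlr8, Tlr9, Tlr11 and Tlr13), GAGGAAGT in 2 (Tlr1 and Tlr11) and the TTTC pair in 2 (Tlr6 and Tlr11). The composite of GGAA and GAAA with 2 bases between them was found in none, against 2.3% of all windows, and the AP-1 form TGANTCA in Tlr9, against 6.75%. Such matches describe letters in a window and are not measured sites.

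**Figure D1:**
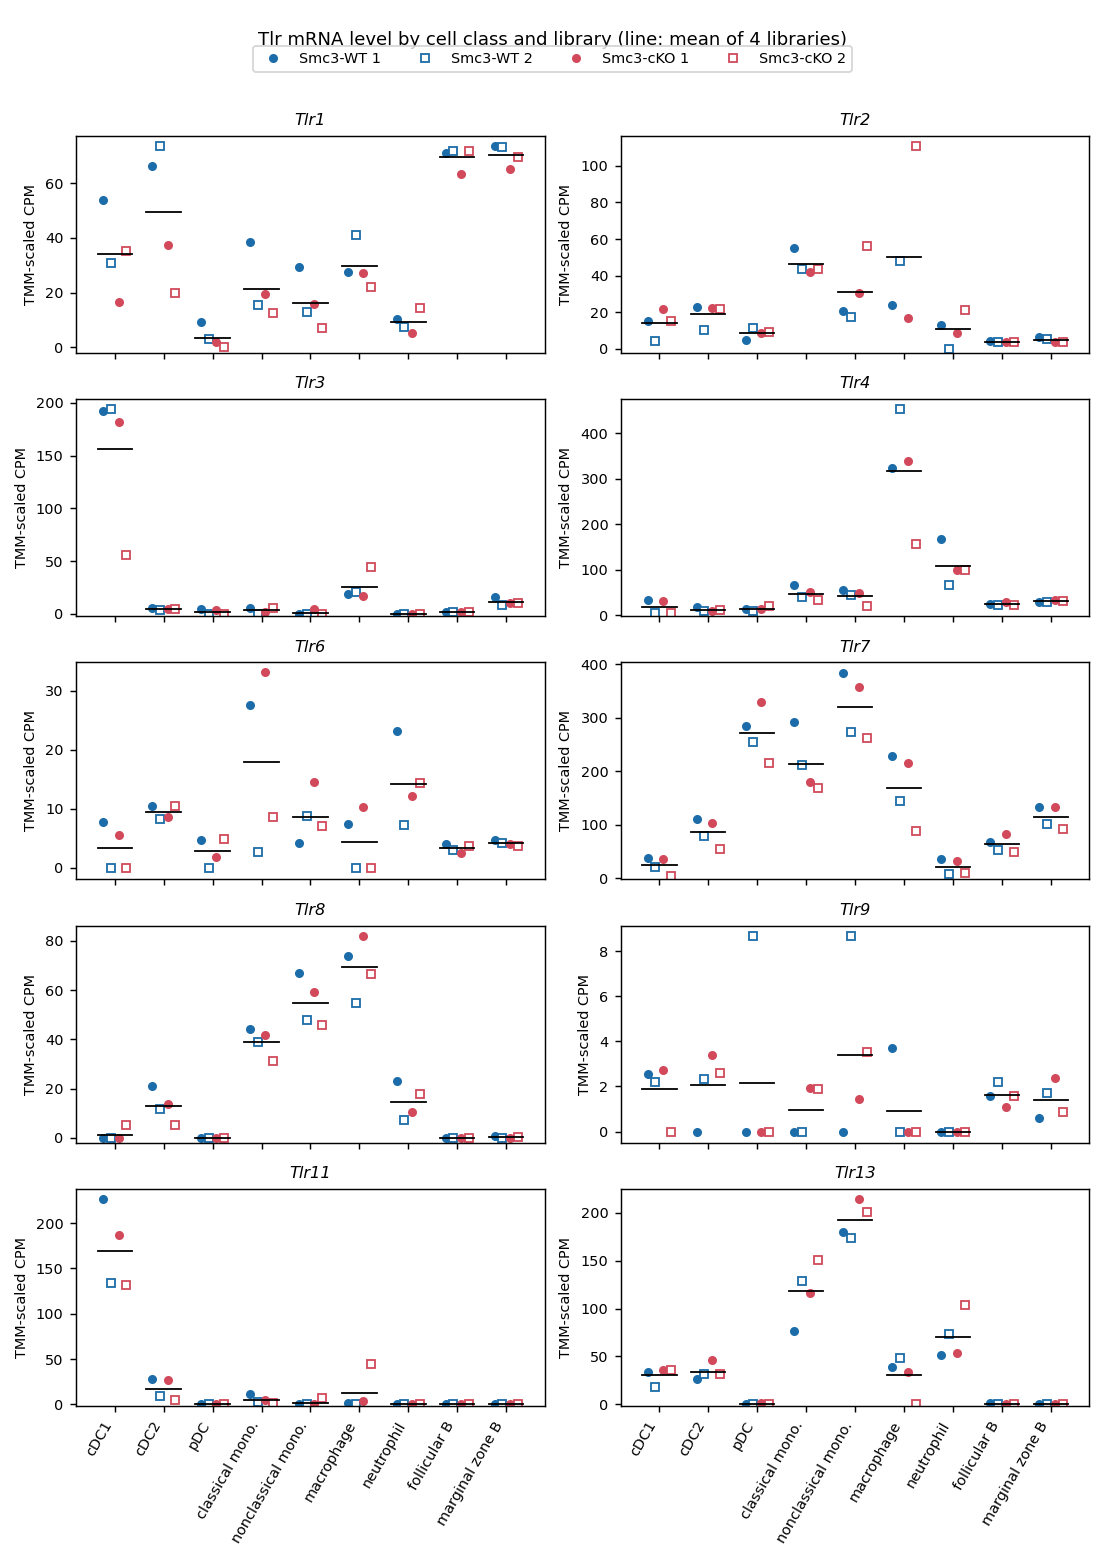
Levels of the 10 Tlr genes in TMM-scaled CPM (y axis, linear, a scale of its own for each gene) in 9 cell classes (x axis). Each point is a library (blue Smc3-WT, red Smc3-cKO; filled circles number 1, open squares number 2), and the line is the mean of the 4; Tlr3 and Tlr11 are highest in cDC1-like cells, Tlr4 in macrophage-like cells and Tlr13 in nonclassical monocyte-like cells.

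Tlr7, the endosomal receptor for single-stranded RNA, was spread over pDC, monocytes, macrophages and B cells. In nonclassical monocyte-like cells it stood at 384 and 274 CPM (Smc3-WT) and at 357 and 261 CPM (Smc3-cKO). In pDC-like cells it stood at 284 and 255 CPM (Smc3-WT) and at 330 and 214 CPM (Smc3-cKO). Classical monocyte-like cells followed with 168 to 291 CPM and macrophage-like cells with 88.7 to 229 CPM, and each of these 4 classes overlapped its neighbour. Marginal zone B-like cells held 92.2 to 134 CPM, cDC2-like cells 55.4 to 112 CPM and follicular B-like cells 48.5 to 83.5 CPM, again with overlaps between neighbours. Below them, without overlap, lay cDC1-like cells with 5.05 to 38.6 CPM and neutrophil-like cells with 7.3 to 36.0 CPM. T-like cells, in which B cell markers were also found, held 9.44 to 17.3 CPM. The cDC2-like cells thus held more Tlr7 than the cDC1-like cells in every library.

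Tlr8, its neighbour on the X chromosome 39050 bases away, had a narrower range of classes. Tlr7 lies at chrX:167303380-167330574 and Tlr8 at chrX:167241123-167264329 in GRCm38.p6. Tlr8 stood at 54.9 to 82.0 CPM in macrophage-like cells, 45.9 to 66.8 CPM in nonclassical monocyte-like cells and 31.4 to 44.0 CPM in classical monocyte-like cells. All libraries of these 3 classes lay above all libraries of the other 6. In cDC2-like cells Tlr8 stood at 20.9 and 11.7 CPM (Smc3-WT) and at 13.6 and 5.19 CPM (Smc3-cKO). No Tlr8 UMI was found in pDC-like cells, which were among the classes highest in Tlr7, and the 4 libraries together allow up to 2.07 CPM there. Both B cell classes held 3 Tlr8 UMIs each, next to 4282 and 1420 Tlr7 UMIs in follicular and marginal zone B-like cells.

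Tlr13, a sensor of bacterial ribosomal RNA at chrX:106143275-106160493, had its highest levels in monocytes. Nonclassical monocyte-like cells held 180 and 174 CPM (Smc3-WT) and 214 and 201 CPM (Smc3-cKO), all above every library of the other 8 classes. Classical monocyte-like cells held 77.0 and 129 CPM (Smc3-WT) and 116 and 150 CPM (Smc3-cKO), and neutrophil-like cells 51.5 to 104 CPM. cDC2-like cells held 26.2 to 45.9 CPM and cDC1-like cells 17.6 to 35.7 CPM, which overlapped. In pDC-like cells Tlr13 had 1 UMI in all, and in B-like cells it stayed at or under 1.19 CPM in each library.

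Tlr9, the receptor for CpG DNA at chr9:106222598-106226876, gave next to no signal. Its highest mean over the 4 libraries was 3.42 CPM, in nonclassical monocyte-like cells, on 4 UMIs. In pDC-like cells it had 3 UMIs, all from Smc3-WT replicate 2. Follicular B-like cells, the deepest class, held 113 UMIs, at 1.59 and 2.18 CPM (Smc3-WT) and 1.09 and 1.57 CPM (Smc3-cKO). In T-like cells 2 UMIs were found. Tlr7 had 382 UMIs in the same pDC-like cells. The counts cannot tell a gene that was little expressed from one whose 3′ reads were not assigned to it, so nothing is read from the low Tlr9 values.

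Among the surface receptors, Tlr4, which binds lipopolysaccharide together with Ly96, had its highest means in macrophages and neutrophils (chr4:66827551-66846581). Macrophage-like cells held 323 and 453 CPM (Smc3-WT) and 338 and 155 CPM (Smc3-cKO), the last on 7 UMIs. Neutrophil-like cells held 167 and 65.7 CPM (Smc3-WT) and 99.1 and 100 CPM (Smc3-cKO), a range that overlapped that of the macrophages through the lowest macrophage library. Classical and nonclassical monocyte-like cells held 33.3 to 66.0 and 21.2 to 54.3 CPM. In marginal zone and follicular B-like cells Tlr4 stood at 27.8 to 34.0 and 21.9 to 28.9 CPM. The dendritic classes were at the end of the order, with 4.41 to 33.4 CPM in cDC1-like, 8.7 to 19.1 CPM in pDC-like and 8.2 to 17.5 CPM in cDC2-like cells.

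Tlr2, at chr3:83836272-83841824 and the partner of both Tlr1 and Tlr6 in binding lipopeptides, had its highest mean in macrophage-like cells, at 17.1 to 111 CPM, where the top value rested on 5 UMIs. Classical monocyte-like cells gave the more even values of 55.0 and 43.9 CPM (Smc3-WT) and 41.9 and 43.8 CPM (Smc3-cKO). With Smc3-WT libraries alone, or with cells assigned one by one, classical monocyte-like cells were the highest class. Nonclassical monocyte-like cells held 20.9 and 17.4 CPM (Smc3-WT) and 30.3 and 56.4 CPM (Smc3-cKO), on too few UMIs for the test (46 in all). In cDC2-like cells Tlr2 stood at 22.7 and 10.5 CPM (Smc3-WT) and at 22.1 and 21.6 CPM (Smc3-cKO). Neutrophil-like cells held 0 to 21.5 CPM, cDC1-like cells 4.41 to 22.0 CPM, pDC-like cells 4.65 to 11.6 CPM, and no library of the B cell classes reached more than 6.43 CPM.

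Tlr6 had its highest mean, 17.9 CPM, in classical monocyte-like cells, where the libraries ranged from 2.58 to 33.1 CPM. Both libraries numbered 1 were high there (27.5 and 33.1 CPM) and both numbered 2 were low (2.58 and 8.56 CPM), whatever the genotype. Neutrophil-like cells held 7.3 to 23.2 CPM and cDC2-like cells 8.2 to 10.5 CPM. Tlr6, at chr5:64953092-64970942, lies 19491 bases from Tlr1, at chr5:64924680-64933600. The 2 genes are close paralogs, so reads from stretches they share could be assigned to either or dropped, and their counts are less certain for that.

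Tlr1 had its highest means over the 4 libraries in B cells. Follicular B-like cells held 71.0 and 71.8 CPM (Smc3-WT) and 63.4 and 71.9 CPM (Smc3-cKO), and marginal zone B-like cells 73.7, 73.5, 65.3 and 69.5 CPM in the same order. cDC2-like cells came next, with a range that overlapped both B cell classes. They stood at 66.3 and 73.8 CPM (Smc3-WT) and at 37.4 and 19.9 CPM (Smc3-cKO). With Smc3-WT libraries alone, marginal zone B-like cells were still the highest of the 9 classes. Mature cDC-like cells, outside the 9, stood above both B cell classes in the Smc3-WT libraries. The other classes had lower means but overlapped in part with their neighbours. cDC1-like cells ranged from 16.5 to 54.0 CPM and macrophage-like cells from 22.2 to 41.1 CPM. Classical monocyte-like cells ranged from 12.4 to 38.5 CPM and nonclassical monocyte-like cells from 7.06 to 29.2 CPM. Neutrophil-like and pDC-like cells stood lowest, at 5.21 to 14.3 and 0 to 9.3 CPM. In cDC1-like cells assigned one by one, the mean was 15.3 CPM in place of 34.2 CPM, and the summed level of 8 B cell markers in the cDC1-like cluster was 670 to 1412 CPM against 6516 to 7115 CPM in follicular B-like cells. The part of B cell RNA in the cDC1-like value was not tested.

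The comparison of genotypes asked whether the levels of these receptors in each class differed between the libraries labelled Smc3-cKO and those labelled Smc3-WT. None of the 10 genes passed the threshold (edgeR's quasi-likelihood test, Benjamini-Hochberg adjusted p under 0.05 over all genes of a class) in any of 10 classes or sums of classes. In all, 53 tests of a member were made, with differences from -1.35 to 0.87 on the log2 scale and a lowest adjusted p of 0.119 (edgeR). These tests are not independent, since the classes share libraries and all cDC-like cells include the cDC1-like and cDC2-like cells. At an unadjusted p under 0.05 there were 2, both for Tlr1, in cDC2-like cells and in the sum of all cDC-like cells. In cDC2-like cells 5 members passed the filter on low counts and 0 were called, against 0.246% of 8136 genes. In all cDC-like cells 9 passed and 0 were called, against 0.626% of 9742 genes. In cDC1-like cells 6 were tested, in pDC-like cells 1, and in classical monocyte-like cells 7, with 0 called of any gene. In nonclassical monocyte-like and macrophage-like cells 4 members each were tested, against 0.0204% and 0.0675% of genes called. Of the 3 tested in neutrophil-like, 8 in follicular B-like and 6 in marginal zone B-like cells, 0 were called, as of all genes there. At an unadjusted p under 0.05, edgeR marked 8.78% of all genes in cDC2-like cells and 10.3% in all cDC-like cells. DESeq2 called no member in these classes either.

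Of the 53 tests, those of Tlr1 in cDC-like cells gave the largest differences for their error. In cDC2-like cells it stood at 66.3 and 73.8 CPM in Smc3-WT, on 38 and 63 UMIs, and at 37.4 and 19.9 CPM in the libraries labelled Smc3-cKO, on 22 and 23 UMIs. The genotypes did not overlap. The log2 difference was -1.35 (SE 0.40, edgeR adjusted p = 0.327). In all cDC-like cells Tlr1 stood at 59.1 and 57.4 CPM (Smc3-WT) and at 26.5 and 20.8 CPM (Smc3-cKO), again without overlap, with a log2 difference of -1.31 (SE 0.31, edgeR adjusted p = 0.119). Groups that do not overlap were common: 40.9% of all tested genes in cDC2-like cells and 40.4% in all cDC-like cells showed this in 1 direction or the other. Mature cDC-like cells, too few to test, held 91.1 and 95.0 CPM (Smc3-WT) and 0 and 15.7 CPM (Smc3-cKO). They numbered 47 and 36 cells in Smc3-WT against 7 and 12 in Smc3-cKO. These cells are part of the sum of all cDC-like cells and made up a larger share of it in Smc3-WT. The part of that share in the Tlr1 difference of the sum was not tested.

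The bases before the Tlr1 start are shown because the tests of Tlr1 in cDC-like cells gave the largest differences for their error. The window of 250 bases lies at chr5:64933559-64933808 in GRCm38.p6, on the minus strand, with GAGGAA in capitals at position -23, where the longer GAGGAAGT also matches.
Tlr1: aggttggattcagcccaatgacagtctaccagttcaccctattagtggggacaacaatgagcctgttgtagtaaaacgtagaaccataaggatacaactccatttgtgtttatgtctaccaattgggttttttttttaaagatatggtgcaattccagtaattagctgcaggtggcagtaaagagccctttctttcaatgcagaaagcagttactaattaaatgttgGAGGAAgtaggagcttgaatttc
The window of the other Tlr1 start, at chr5:64932700-64932949, held none of the motifs searched.

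The call for Tlr1 depended on the libraries and the filter used. Without Smc3-WT replicate 1 the adjusted p in cDC2-like cells was 0.0288 at a log2 difference of -1.44, and without Smc3-WT replicate 2 it was 0.0442 at -1.28 (edgeR, the lone library being assumed to vary like the others). Without Smc3-cKO replicate 1 the difference was -1.80 (adjusted p = 0.490) and without Smc3-cKO replicate 2 it was -0.91 (adjusted p = 0.906). In all cDC-like cells the adjusted p was 0.0192 at a log2 difference of -1.27 with no filter on low counts (edgeR). Over all 15 alternatives the difference in cDC2-like cells ranged from -1.80 to -0.89 and in all cDC-like cells from -1.65 to -1.10, with the same sign in each. Within the Adam23 cluster of cDC2-like cells, Tlr1 stood at 74.4 and 87.7 CPM (Smc3-WT) and at 30.3 and 38.7 CPM (Smc3-cKO), with a log2 difference of -1.17 (SE 0.44, adjusted p = 0.997 by edgeR); 0 members were called there, against 0.0603% of genes. In the Cd209a cluster the values were 33.8 and 44.6 CPM against 40.9 and 9.88 CPM, and the genotypes overlapped.

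Sums of markers of other cells were also compared between the genotypes in cDC2-like cells. Groups that do not overlap were common there, at 40.9% of all tested genes, so a sum without overlap is only described. Sums of the natural killer cell, erythroid, neutrophil and macrophage markers overlapped between the genotypes. Those of B cell, T cell, pDC, cDC1 and classical monocyte markers did not. The cDC1 sum was lower in Smc3-cKO (1377 and 1535 CPM against 2044 and 2066). The classical monocyte sum was higher there (2085 and 1830 CPM against 1486 and 934). The 8 B cell markers, all detected, summed to 500 and 146 CPM in cDC2-like cells of Smc3-WT and to 101 and 85.0 CPM in those of Smc3-cKO, against 6516 to 7115 CPM in follicular B-like cells. The 7 T cell markers, all detected, summed to 498 and 248 CPM against 39.2 and 112 CPM, and to 3377 to 3703 CPM in T-like cells. In T-like cells Tlr1 stood at 39.3 and 32.0 CPM (Smc3-WT) and at 24.7 and 21.7 CPM (Smc3-cKO). After every cell with UMIs of B, T or another lineage's markers was left out, which reduced Smc3-WT replicate 1 from 119 to 41 cDC2-like cells, the log2 difference of Tlr1 was -1.31 (SE 0.48, adjusted p = 0.558 by edgeR). The 12 pDC markers, 11 of them detected, summed to 1355 and 1309 CPM in cDC2-like cells of Smc3-WT and to 2984 and 3545 CPM in those of Smc3-cKO, and the part of such cells in the Tlr1 result was not tested.

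**Figure D2:**
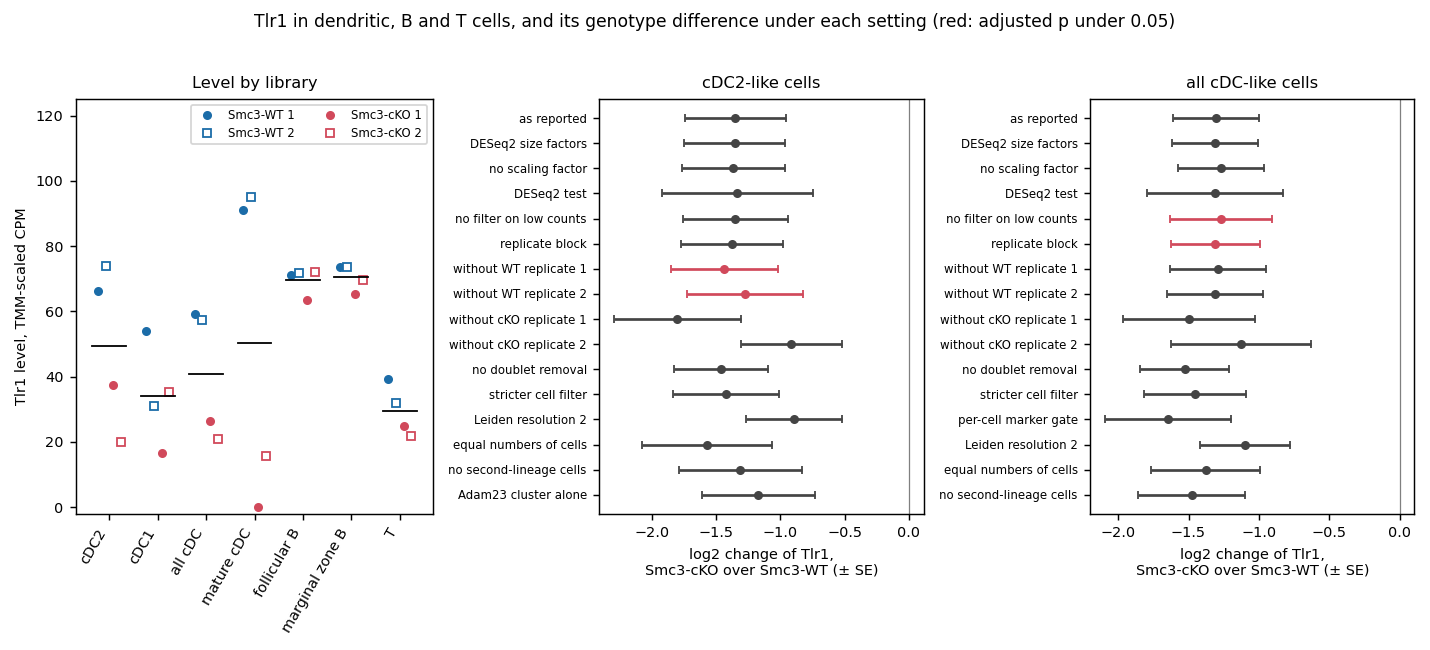
Left, Tlr1 level in TMM-scaled CPM by library and class, with the mean of the 4 libraries as a line. Middle and right, the log2 difference of Tlr1 (Smc3-cKO over Smc3-WT, bars 1 SE) as reported and under each alternative in cDC2-like and all cDC-like cells; every value lies below 0, and those in red have an adjusted p under 0.05.

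Whether the genotype difference of a member in cDC2-like cells differed from that in another class was tested as an interaction against 5 classes. No member passed the threshold, against 0.0497%, 0.882%, 0.0454%, 0.0246% and 1.15% of all genes in the tests against cDC1-like, pDC-like, classical monocyte-like, nonclassical monocyte-like and follicular B-like cells. For Tlr1 the difference in cDC2-like cells was lower than that in follicular B-like cells by -1.36 on the log2 scale (SE 0.35, edgeR adjusted p = 0.0598). In follicular B-like cells Tlr1 itself differed by -0.08 (SE 0.15). The same comparison with classical monocyte-like cells gave -0.79 (SE 0.60) and with cDC1-like cells -0.48 (SE 0.67). Without Smc3-cKO replicate 1, 1 member was called in the comparison with follicular B-like cells.

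The receptors with their highest level in cDC1-like cells did not pass the test there. The log2 difference of Tlr3 was -0.64 (SE 0.48), carried by Smc3-cKO replicate 2, and that of Tlr11 was -0.16 (SE 0.38). In cDC1-like cells of Smc3-cKO replicate 2 the pDC markers summed to 2774 CPM, against 684 to 932 CPM in the other libraries. The cDC1 markers summed to 7649 CPM there, against 8499 to 11513 CPM. The part of either in the Tlr3 value was not tested. The sum of all cDC-like cells gave 66.3 and 65.1 CPM of Tlr3 (Smc3-WT) against 64.0 and 10.7 CPM (Smc3-cKO). Its log2 difference was -0.86 (SE 0.61, adjusted p = 0.73 by edgeR), which without Smc3-cKO replicate 1 became -2.62 (adjusted p = 0.0115), past the threshold on a single library. Smc3-cKO replicate 2 also had the smallest share of cDC1-like cells in that sum, 25 of 259, against 49 of 294, 60 of 324 and 31 of 199 in Smc3-WT 1 and 2 and Smc3-cKO 1. Tlr11 in all cDC-like cells stood at 90.4 and 52.3 CPM against 79.5 and 22.1 CPM, with a log2 difference of -0.52 (SE 0.53).

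The other members of the dendritic classes had smaller or less certain differences. In cDC1-like cells those were -0.79 (SE 0.61) for Tlr1, 0.12 (SE 1.0) for Tlr4, -0.37 (SE 0.76) for Tlr7 and 0.49 (SE 0.58) for Tlr13 on the log2 scale. In cDC2-like cells Tlr7 stood at 112 and 78.5 CPM (Smc3-WT) and at 104 and 55.4 CPM (Smc3-cKO), a log2 difference of -0.28 (SE 0.38). There Tlr2, Tlr11 and Tlr13 had differences of 0.45 (SE 0.51), -0.31 (SE 0.84) and 0.37 (SE 0.40). Tlr4 and Tlr8 in that class had 34 and 36 UMIs in all and were not tested. In all cDC-like cells Tlr2 had 15.3 and 8.29 CPM against 20.1 and 20.1 CPM, and Tlr13 had 24.8 and 25.5 CPM against 46.6 and 31.5 CPM. Both were higher in the 2 libraries labelled Smc3-cKO without overlap, at log2 differences of 0.78 (SE 0.44) and 0.62 (SE 0.34), and neither passed the test (adjusted p = 0.64 and 0.62 by edgeR). Tlr4 and Tlr7 there differed by -0.04 (SE 0.58) and -0.08 (SE 0.32). In pDC-like cells only Tlr7 could be tested, with a log2 difference of 0.04 (SE 0.31).

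In the other myeloid classes the differences stayed between -0.59 and 0.87 on the log2 scale. Tlr7 in classical monocyte-like cells stood at 291 and 212 CPM (Smc3-WT) and at 179 and 168 CPM (Smc3-cKO), at a difference of -0.51 (SE 0.29). Only 50 cells of Smc3-WT replicate 1 were in that class, against 362 of Smc3-cKO replicate 2. Tlr1, Tlr2, Tlr4 and Tlr8 had differences of -0.59 (SE 0.64), -0.17 (SE 0.38), -0.23 (SE 0.44) and -0.15 (SE 0.42) there, and Tlr6 and Tlr13 had 0.87 (SE 1.02) and 0.31 (SE 0.33). In nonclassical monocyte-like cells Tlr13, at 180 and 174 against 214 and 201 CPM, differed by 0.24 (SE 0.25), and Tlr4, Tlr7 and Tlr8 by -0.37 (SE 0.48), -0.07 (SE 0.26) and -0.09 (SE 0.40). In macrophage-like cells Tlr4 differed by -0.45 (SE 0.37), Tlr2 by 0.19 (SE 0.99), Tlr7 by -0.11 (SE 0.42) and Tlr8 by 0.22 (SE 0.46). In neutrophil-like cells Tlr4, Tlr7 and Tlr13 differed by -0.32 (SE 0.45), -0.12 (SE 0.78) and 0.35 (SE 0.49).

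For Tlr1 and Tlr4 the errors were smaller in B cells than in the other classes tested. In follicular B-like cells the differences of Tlr1, Tlr4 and Tlr7 were -0.08 (SE 0.15), 0.12 (SE 0.20) and 0.12 (SE 0.29). In marginal zone B-like cells Tlr1, Tlr3, Tlr4 and Tlr7 differed by -0.13 (SE 0.20), -0.24 (SE 0.42), 0.21 (SE 0.24) and -0.06 (SE 0.26). Tlr9 in follicular B-like cells, on its 113 UMIs, differed by -0.50 (SE 0.45).

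**Figure D3:**
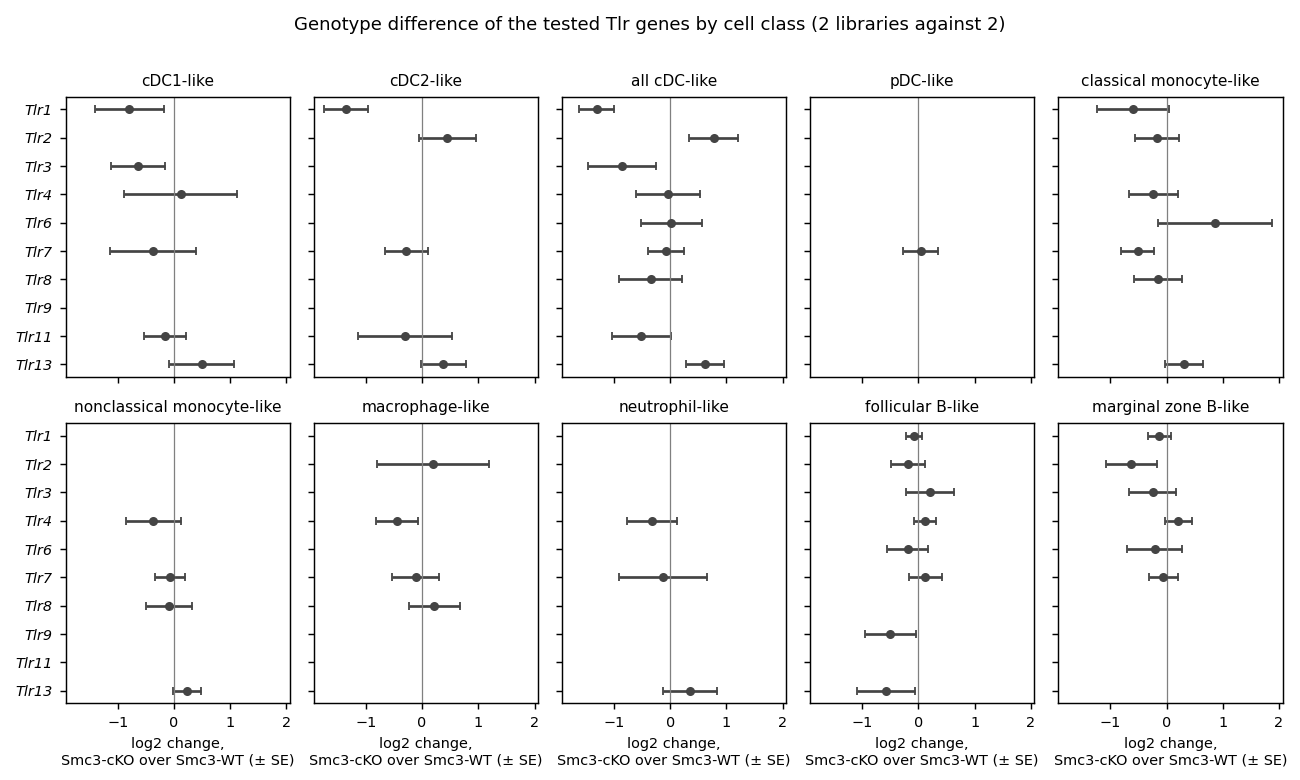
Log2 difference (x axis, Smc3-cKO over Smc3-WT, bars 1 SE) of each tested Tlr gene (y axis) in 10 cell classes, from 2 libraries against 2. Genes with no point did not pass the filter on low counts; the points farthest below 0 for their error are those of Tlr1 in cDC2-like and all cDC-like cells.

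Tlr7 levels were ordered by library number in most classes. In 9 of the 10 classes or sums of classes, both libraries numbered 1 held more Tlr7 than both numbered 2, and classical monocyte-like cells were the exception. In follicular B-like cells the unscaled levels were 69.6 and 85.3 CPM in Smc3-WT and Smc3-cKO replicate 1 and 50.7 and 48.3 CPM in replicate 2. In marginal zone B-like cells they were 139 and 134 CPM against 97.6 and 90.9 CPM, and in nonclassical monocyte-like cells 346 and 325 CPM against 255 and 247 CPM. The share of all genes with at least 20 UMIs that showed this order was 33.7% in follicular B-like, 29.7% in marginal zone B-like and 16.8% in nonclassical monocyte-like cells, and the classes share libraries, so the 9 are not independent. Tlr8 showed the same order in 5 of 6 classes, Tlr11 in 3 of 4 and Tlr4 in 5 of 9. Tlr3, Tlr6 and Tlr1 showed it in 2 of 5, 2 of 6 and 2 of 8. Tlr2, Tlr9 and Tlr13 showed it in none of 7, 1 and 8. The reverse order was seen in 2 classes for Tlr13 and in 1 each for Tlr2 and Tlr3. Over all classes, 16.8% to 33.7% of genes had the order of Tlr7. The libraries numbered 1 were also those with more erythroid-like cells and a higher median of mitochondrial UMIs (7.51% and 5.64% against 3.25% and 3.97%), and the part of either in the Tlr7 order was not tested.

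**Figure D4:**
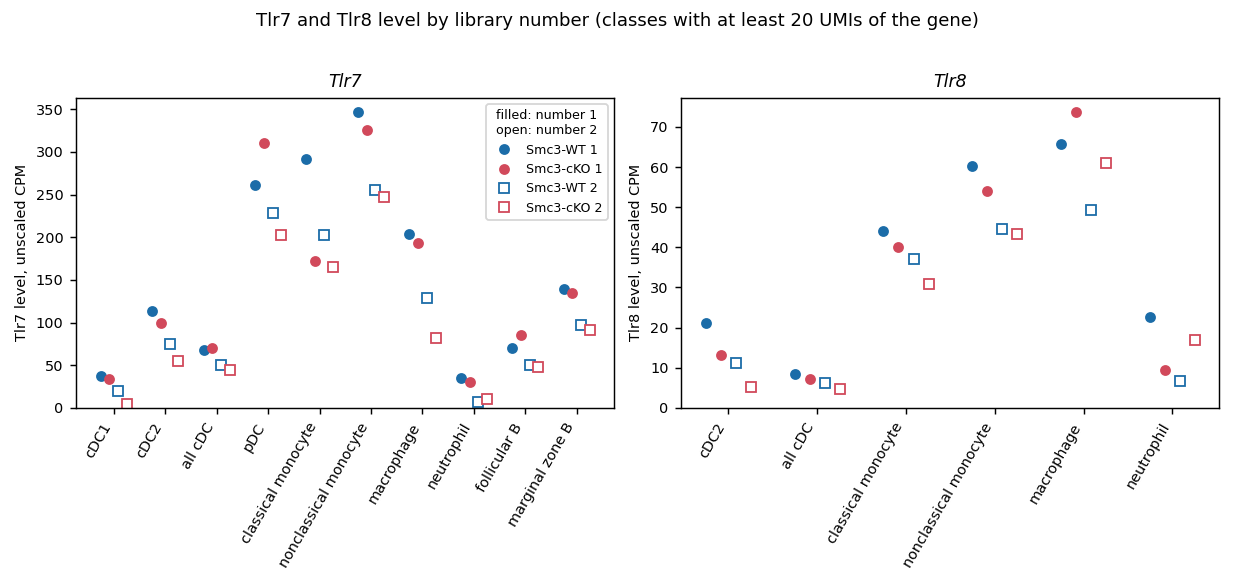
Unscaled CPM (y axis, linear) of Tlr7 and Tlr8 in each class with at least 20 UMIs of the gene (x axis), 1 point per library (filled circles number 1, open squares number 2; blue Smc3-WT, red Smc3-cKO). For Tlr7 the filled circles lie above the open squares in 9 of 10 classes, classical monocyte-like cells being the exception.

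The rest of the pathway was read from 107 genes in 8 lists, of which 78 were tested in cDC2-like cells. None was called there or in any other class, and 8 had an unadjusted p under 0.05 by edgeR, 3 lower and 5 higher, in a class where 8.78% of all genes did. In that class 5 Tlr members were tested, 3 lower and 2 higher in Smc3-cKO. Their median log2 difference of -0.28 was the value of Tlr7 (SE 0.38), against 0.02 over all genes tested. The factors that carry and mature receptors had a median of -0.03: Unc93b1, the chaperone that brings endosomal receptors to their compartment, stood at 468 and 433 CPM (Smc3-WT) and 437 and 366 CPM (Smc3-cKO), and Ctss, a protease of the endosome, at 831 and 779 against 1125 and 939 CPM, while the kinase Syk differed by -0.03 (SE 0.29). Of the co-receptors, with a median of 0.35 over the 4 tested, Cd180 and its partner Ly86 differed by -0.05 (SE 0.27) and 0.23 (SE 0.36). Scarb1, a scavenger receptor for lipoproteins, stood at 71.6 and 86.7 CPM (Smc3-WT) and at 151 and 131 CPM (Smc3-cKO), without overlap, a log2 difference of 0.82 (SE 0.27, adjusted p = 0.39 by edgeR). Myd88 stood at 14.0 and 38.7 against 44.2 and 54.5 CPM, without overlap, a log2 difference of 0.86 (SE 0.48), and the adaptors Pik3ap1 and Scimp differed by -0.44 (SE 0.31) and -0.86 (SE 0.46). The kinases and ubiquitin ligases had a median of -0.12, with Peli1 at -0.39 (SE 0.33), Traf3 at -0.57 (SE 0.29) and Tab2 at 0.11 (SE 0.27).

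Among the transcription factors, whose median was 0.34, Nfkb1 and Rel differed by 0.02 (SE 0.37) and -0.37 (SE 0.28). Irf8, a factor that also directs cDC1 and pDC development, stood at 178 and 234 CPM (Smc3-WT) and at 408 and 374 CPM (Smc3-cKO), a log2 difference of 0.92 (SE 0.28, adjusted p = 0.34 by edgeR). Irf7, an interferon regulator named after its values were seen, stood at 12.2 and 21.1 against 76.6 and 41.5 CPM, a log2 difference of 1.74 (SE 0.48, adjusted p = 0.29 by edgeR). The 12 pDC markers stood higher in the same 2 libraries, at 2984 and 3545 against 1355 and 1309 CPM, and pDC-like cells themselves held 2014 to 3259 CPM of Irf8 and 32.6 to 73.7 CPM of Irf7. The part of pDC in both differences was not tested. The negative regulators had a median of -0.11, with Inpp5d, the phosphatase SHIP1, at -0.12 (SE 0.31), Pik3cd at -0.20 (SE 0.28) and the deubiquitinase Cyld at -0.59 (SE 0.25). Of the other innate sensors, also at -0.11, Nod1, which detects a bacterial cell wall fragment, stood at 164 and 132 against 74.9 and 70.1 CPM, a difference of -1.03 (SE 0.27, adjusted p = 0.25 by edgeR), and Aim2 and Ifih1 differed by -0.55 (SE 0.26) and -0.33 (SE 0.27). Only 2 of the 13 cytokine genes were abundant enough to test. Cxcl9 stood at 12.2 and 1.17 CPM (Smc3-WT) and at 35.7 and 79.6 CPM (Smc3-cKO) (log2 difference 3.31, SE 0.78, adjusted p = 0.21 by edgeR), and Il1b differed by -0.21 (SE 0.48).

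The genes whose levels followed a member most closely were sought over 64 sums, of 16 classes in 4 libraries, among 7636 genes that reached 50 CPM in a class. These sums share libraries and depth, so the correlations only describe. The markers that named the classes were kept among the genes, and Ppt1, which appears below, is a listed cDC1 marker. Tlr8 and Tlr13 had the closest companions: Itgb5, Pilrb1 and Pilrb2 followed Tlr8 (Pearson r of log2 levels 0.92 for each), and Csf2ra, Lst1 and Nadk followed Tlr13 (0.92, 0.90 and 0.89). Tlr3 was followed by Gpr141b, Ppt1 and Fndc7 (0.83, 0.76 and 0.76) and Tlr11 by Fndc7, Rab43 and Htr7 (0.83, 0.82 and 0.82), so that Fndc7 was named for both receptors of cDC1-like cells. Tlr7 was followed by Abi3, Plekhm3 and Ptprj (0.83, 0.80 and 0.80) and Tlr4 by Entpd1, Aatk and B430306N03Rik (0.76, 0.73 and 0.73). Tlr1 was followed least closely, by Pgap1, Rasgef1b and Grb2 (0.74, 0.69 and 0.69).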

How the data were processed

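The deposited values are UMI counts for each gene in each barcode, from Cell Ranger 7.0.0 per the file headers; the build is mm10 per the submitters' processing notes, and whether intronic reads were counted is not given in the sources used here. The libraries were made with a 3′ kit aimed at 10000 cells each, per the labels' protocols. A filter of at least 200 genes and no more than 10% mitochondrial UMIs passed 46886 of 53644 barcodes, and doublets called with Scrublet in scanpy 1.11.5 were removed, leaving 44803 cells. The lists, the members and the comparisons were chosen with earlier results of these data known.

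Cells were clustered on 2000 variable genes, without Tlr, immunoglobulin, T cell receptor, mitochondrial, ribosomal and haemoglobin genes, with 30 components, 15 neighbours and a Leiden resolution of 1 (scikit-learn 1.9.0, igraph 0.11.9); clusters low in B and T cell markers were clustered again, giving 45. A cluster was named where at least 3 of a list's markers, and a share of 0.5, reached 20 CPM and a log2 ratio of 1; this scoring rule was set after the data were seen. Unnamed were 11 clusters with 2049 cells. A cluster of 198 shallow cells with markers of 2 cDC classes entered only the sum of all cDC-like cells.

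Counts were summed per class and library; classes with at least 20 cells in each library were tested with edgeR 4.0.16 (R 4.3.3, limma 3.58.1; filterByExpr, TMM, quasi-likelihood), with p-values adjusted by Benjamini-Hochberg over all genes of the class. The scripts were tested on simulated data. Interactions kept the library as a block. All 10 members were named in each class where a genotype's mean reached 10 CPM, otherwise by range; of each pathway list, genes past the threshold in a dendritic class and up to 3 of the highest CPM in cDC2-like cells. Tasl, Rigi, Mb21d1 and Sting1 have no row under those symbols. Basophil-like cells, 5 in 1 library, were left out of the search for companion genes. Alternatives were DESeq2 1.42.0 size factors and test, no scaling, no filter, the replicate block, leaving out each library, a per-cell marker gate, Leiden resolution 2, equal cell numbers, no doublet removal, a stricter filter (500 genes, 5% mitochondrial), cells without second-lineage markers and, added after seeing the data, the Adam23 cluster alone.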

Additional observations from a re-analysis of the deposited data

How the results depend on the processing

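The count of members called stayed 0 in 162 of 168 recomputed comparisons of a class or an interaction. It became 1 in cDC2-like cells without Smc3-WT replicate 1 or 2 (0 to 1 over the 4 omissions), in all cDC-like cells without Smc3-cKO replicate 1 (0 to 1), and in the interaction with follicular B-like cells without Smc3-cKO replicate 1 (0 to 1). In all cDC-like cells it was also 1 with no filter on low counts and with the replicate block, both times Tlr1 (edgeR adjusted p = 0.019 and 0.028). The numbers shared by the genotypes come with no label that pairs the libraries; same-numbered deviations correlated at -0.093 to 0.65 over the classes (genes, not independent), so the replicate block serves only as a check, and in interactions it could not be fitted because the number is nested in the library. It called no member in another class. The class with the highest level was the same for 10 of 10 members without scaling, and for 7 with Smc3-WT libraries alone or the per-cell marker gate. Of 44 log2 differences, 27 changed sign when a library was left out, with these ranges: in cDC1-like cells Tlr4 -1.79 to 0.70, Tlr7 -2.49 to 0.25 and Tlr11 -0.49 to 0.26; in cDC2-like cells Tlr2 -0.0498 to 1.04, Tlr7 -0.76 to 0.12 and Tlr11 -1.75 to 0.60; in pDC-like cells Tlr7 -0.32 to 0.26; in all cDC-like cells Tlr4 -0.61 to 0.88, Tlr7 -0.45 to 0.23 and Tlr11 -1.69 to 0.17. In classical monocyte-like cells they were Tlr1 -1.24 to 0.027, Tlr4 -0.63 to 0.10, Tlr6 -0.55 to 2.92 and Tlr8 -0.37 to 0.0501, and in nonclassical ones Tlr7 -0.33 to 0.19 and Tlr8 -0.32 to 0.17. In macrophage-like cells they were Tlr2 -0.89 to 1.73, Tlr7 -1.15 to 0.29 and Tlr8 -0.032 to 0.50, and in neutrophil-like cells Tlr4 -0.72 to 0.62, Tlr7 -1.19 to 0.34 and Tlr13 -0.12 to 0.81. In follicular B-like cells they were Tlr1 -0.14 to 0.052, Tlr4 -0.023 to 0.32 and Tlr7 -0.28 to 0.50, and in marginal zone ones Tlr3 -0.71 to 0.23 and Tlr7 -0.35 to 0.14. Other alternatives turned the sign as follows, and the cause was not tested. Leiden resolution 2 gave 0.18 for Tlr7 and 0.018 for Tlr11 in cDC2-like, -0.22 for Tlr7 in pDC-like, and 0.67 for Tlr4 and 0.20 for Tlr7 in all cDC-like cells. The per-cell marker gate gave -0.0798 for Tlr7 in pDC-like, 0.11 for Tlr4 in all cDC-like, 0.52 for Tlr4 in classical monocyte-like, -0.30 for Tlr2 and -0.017 for Tlr8 in macrophage-like and -0.039 for Tlr13 in neutrophil-like cells. The replicate block gave -0.085 for Tlr4 in cDC1-like, 0.0595 for Tlr4 in all cDC-like and 0.012 for Tlr7 in neutrophil-like cells. Without second-lineage cells, Tlr7 in all cDC-like cells was 0.053, Tlr4 in classical monocyte-like cells 0.24 and Tlr8 in nonclassical ones 0.23. The stricter cell filter gave 1.26 for Tlr4 in all cDC-like and 0.11 for Tlr3 in marginal zone B-like cells. No doublet removal gave 0.36 for Tlr4 in all cDC-like and -0.0067 for Tlr2 in macrophage-like cells. Tlr4 was -0.0028 with DESeq2 in cDC1-like cells and 0.0093 with no filter in all cDC-like cells, and Tlr11 was 0.079 with equal cell numbers in cDC1-like cells and 0.54 in the Adam23 cluster. The per-cell gate left 14 and 16 cDC2-like cells in the libraries numbered 1, too few to test. Members below the filter on low counts in a class were left untested there.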

Other observations

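Mature cDC-like cells (47, 36, 7 and 12 cells in Smc3-WT 1 and 2 and Smc3-cKO 1 and 2) were too few to compare but gave values for several members. Tlr11 stood at 69.4 and 55.4 CPM in Smc3-WT and at 59.6 and 0 CPM in Smc3-cKO, on 25 UMIs in all. Tlr13 stood at 13 and 39.6 CPM against 209 and 47.1 CPM, on 18 UMIs. Tlr3, the other receptor of cDC1-like cells, had 1 UMI there. In the cluster of shallow cells with markers of cDC1 and mature cDC, Tlr3 had 24 UMIs and Tlr7 had 1.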
